A study of Mus musculus with 8 samples.

Results

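A set of 35 genes of fatty acid uptake and mitochondrial beta-oxidation was examined in mouse tibialis anterior (TA) muscle, a fast-twitch muscle of the lower leg. The members were chosen by gene symbol, for what their products are known to do, and all 35 were found among the 55401 genes of the deposited table. Whole TA muscles came from male mice that were 6 mo old, namely 4 wild-type (WT) mice of the C57/Bl6 strain and 4 mdx5cv mice. The mdx5cv line is a mouse model of Duchenne muscular dystrophy (DMD) that carries a mutation of the dystrophin gene in all its tissues, on the same B6 background, and no other allele or agent was given for either group. RNA was read by total RNA sequencing after depletion of ribosomal RNA. The labels number the muscles of each group without further details of litter or cage, so p-values measure the spread between these muscles.

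Long-chain fatty acids enter a muscle fiber through membrane proteins, are bound in the cytosol, are joined to coenzyme A by acyl-CoA synthetases and cross the mitochondrial membranes as acylcarnitines. Inside the mitochondrion each turn of beta-oxidation runs through a dehydrogenase, a hydratase, another dehydrogenase and a thiolase, and the electrons pass through the electron transfer flavoprotein to the respiratory chain. Malonyl-CoA restrains the entry step, and transcription factors of the PPAR family are known to switch many of these genes on.

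Each muscle gave 13175524 to 14921057 reads assigned to genes, and the values are read counts divided by a size factor per muscle (normalized counts). Dmd, which encodes dystrophin, was counted as the check of the labels, and its transcripts were lower in every mdx5cv muscle (3461 to 4400) than in any WT muscle (6169 to 8155). Size factors separated the groups, at 0.873 to 0.944 in WT and 1.06 to 1.25 in mdx5cv muscle, and transcripts of the mitochondrial genome took 30.0% to 38.7% of reads in WT and 25.3% to 32.1% in mdx5cv muscle.

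The members were mostly lower in mdx5cv muscle. Their normalized counts summed to 42099 ± 5534 in WT and 21929 ± 3587 in mdx5cv muscle (mean ± SD, n = 4), which is 52.1% of the WT level. Under the deposited scaling 19 members, among them Cpt1b, whose groups overlapped, had a mean under 60% of WT. The share of all genes under that cut was not counted. A mean normalized count of at least 10 was reached by 34 of the 35 members, and these were tested with limma among the 13677 genes that reached it, with p-values adjusted over all of them by the Benjamini-Hochberg method. At an adjusted p under 0.05, 27 of the 34 were lower in mdx5cv muscle, where 20.1% of the 13677 genes tested were lower, and 1 was higher, where 20.9% of genes were higher. When the absolute log2 fold change also had to reach 1, 12 members were lower against a background of 3.27%, and 1 was higher against a background of 10.3%. In 24 members every mdx5cv muscle lay below every WT muscle, which was so for 19.8% of genes, and in 1 member every mdx5cv muscle lay above, which was so for 20.3% of genes. The median log2 fold change was -0.90 over the 34 members, with quartiles of -1.13 and -0.55, and 0.00 over all genes tested. The sign was negative for 32 of the 34.

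**Figure D1:**
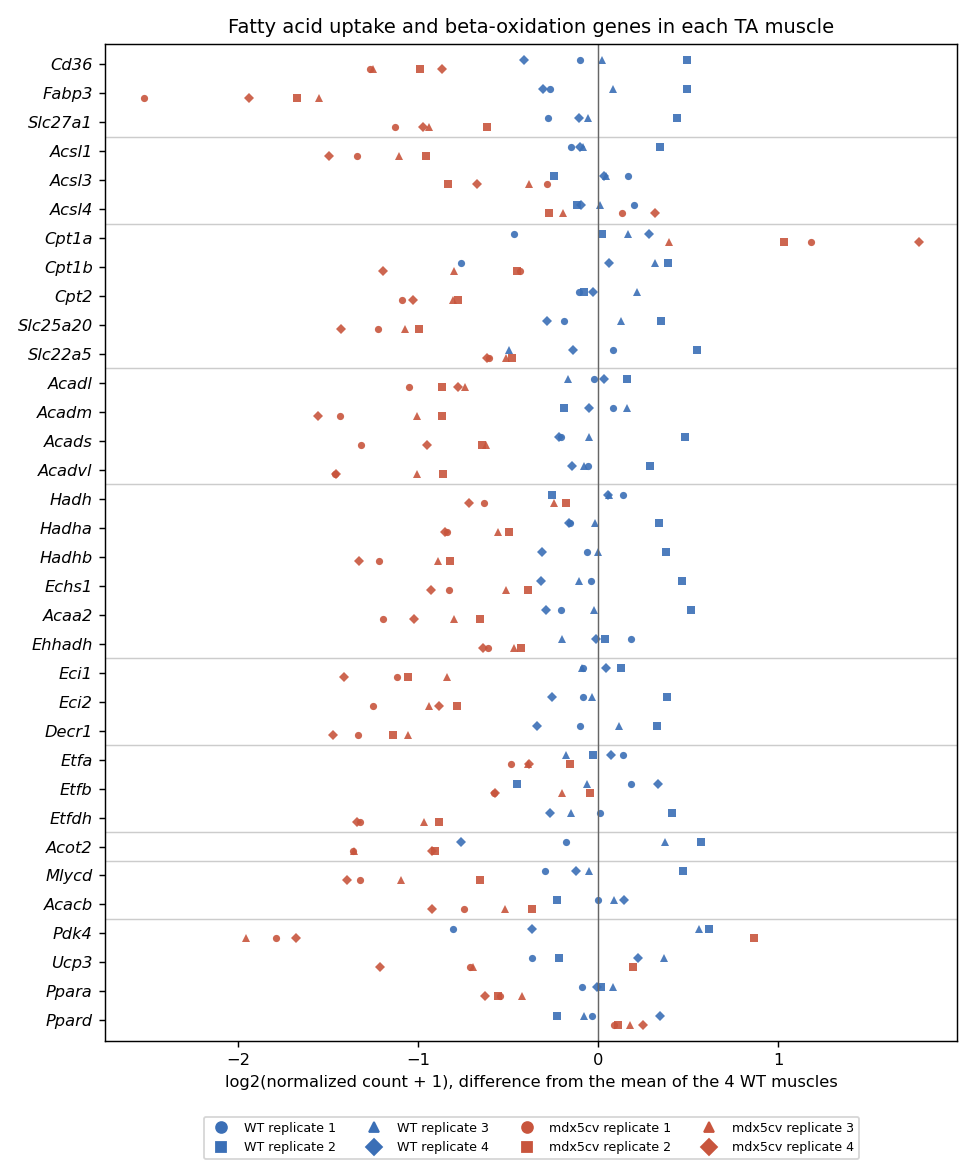
Level of each of the 34 tested members in each of the 8 TA muscles, as log2(normalized count + 1) minus the mean of the 4 WT muscles (horizontal axis). Blue marks are WT and red marks mdx5cv muscles, with 1 marker shape per replicate number, and grey lines separate the roles. In 24 members all red marks lie left of all blue marks, Cpt1a alone has all red marks on the right, and the square for mdx5cv replicate 2 of Pdk4 lies apart from the other 3.

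The size of these differences depended on how the libraries were scaled. When every muscle was scaled to the same total of reads, the median of all genes moved to 0.36 and that of the members to -0.54, with 19 members lower and 2 higher (Cpt1a and Ppard). The share of all genes called was then 5.995% lower and 39.8% higher. Acacb, Acsl3, Echs1, Ehhadh, Etfa, Hadh, Ppara and Slc22a5 were no longer called lower. Under that scaling Fabp3 alone was lower past the log2 fold change of 1, where 1.53% of all genes were. A scaling moves every gene of a library by nearly the same amount on the log2 scale, so a value relative to the median of all genes hardly changes by construction, and relative to it the members' median was -0.90 and 32 of the 34 members lay below. In bulk tissue, fewer cells of a type and less RNA per cell cannot be told apart.

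**Figure D2:**
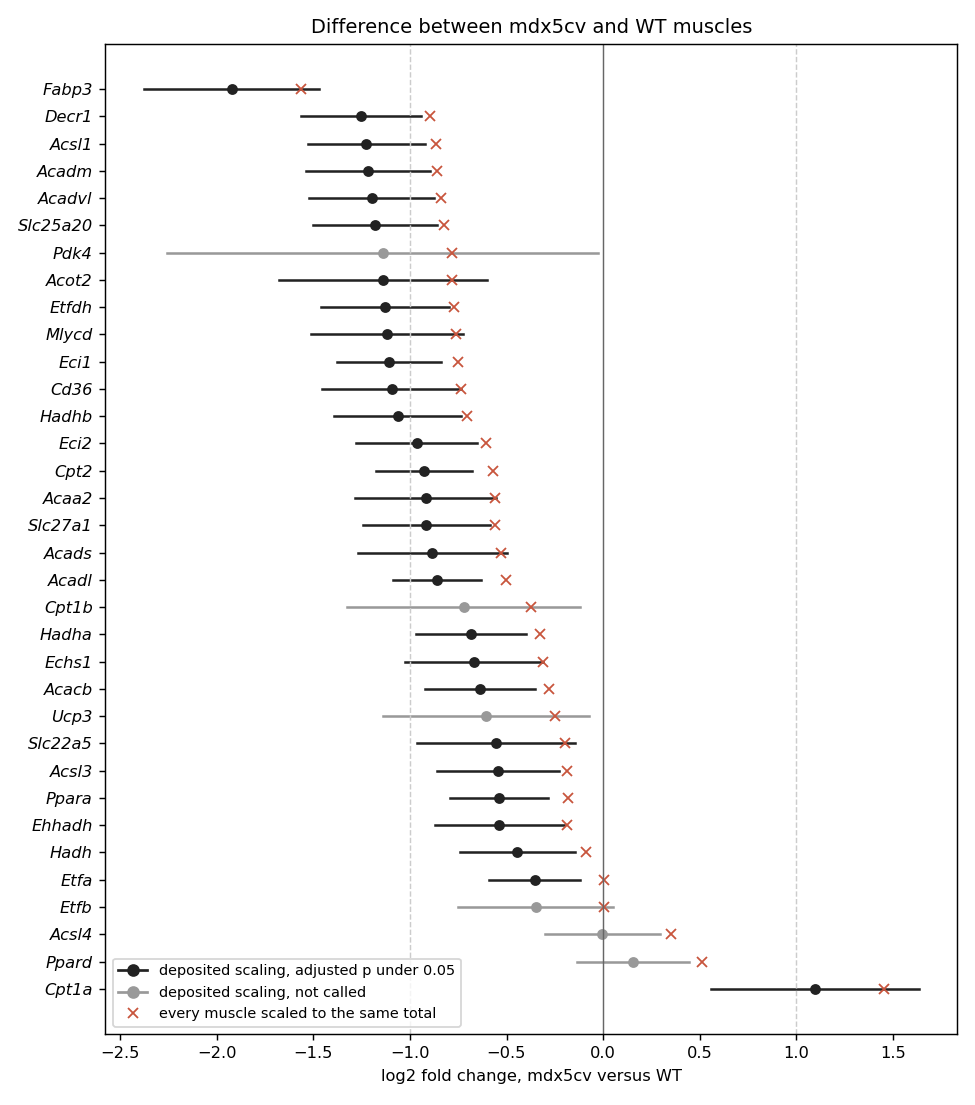
The log2 fold change of each tested member, mdx5cv versus WT (horizontal axis), with its 95% confidence interval under the deposited scaling (dots and lines, black for an adjusted p under 0.05 and grey otherwise) and its value with every muscle scaled to the same total (crosses). The crosses lie to the right of the dots for each member, and the dots run from -1.92 for Fabp3 to 1.10 for Cpt1a.

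Promoters were searched because many members are known targets of PPAR factors, which bind as dimers with RXR to a pair of AGGTCA half-sites spaced by 1 base (direct repeat 1, DR1). RefSeq promoters of GRCm38.p6, which hold 250 bases before and 50 bases after a transcription start, were found for 32 members, as 35 promoters, and not for Acaa2, Cpt1b and Decr1. With at most 2 mismatches over the 12 fixed bases, on either strand, a DR1 match lay in 5 of the 35 promoters (14.3%), and in 3.86% of all 32851 promoters of the same length. TCAAGGTCA, the element of the estrogen-related receptors, which ends in the same half-site, was searched by a stricter rule, with no mismatch allowed. It was in 0 of the 35 and in 0.423% of all promoters, and at so low a share 35 promoters are too few for a comparison. The 5 matches lay in the promoters of Cd36, Echs1, Etfa, Slc25a20 and Ucp3, each with 2 mismatches, and a match describes letters in a window and not a bound site. The 4 stretches with a match wholly before the start are shown from 5′ to 3′ on the gene's strand, with the match in capitals, because they let the letters be set beside the values of these members. They were Cd36 at chr5:17835907-17835999, minus strand, Echs1 at chr7:140116452-140116544, minus strand, Etfa at chr9:55512268-55512360, minus strand, and Ucp3 at chr7:100472900-100472990, plus strand. By the GENCODE M21 annotation the Cd36 stretch lies inside the gene, which has other starts farther upstream, and the 3′ end of the Echs1 stretch reaches past the annotated edge of that gene.
Cd36: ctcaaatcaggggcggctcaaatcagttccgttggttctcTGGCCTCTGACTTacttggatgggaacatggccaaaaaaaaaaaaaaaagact
Echs1: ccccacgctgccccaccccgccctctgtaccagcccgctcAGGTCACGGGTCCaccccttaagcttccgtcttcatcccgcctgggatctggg
Etfa: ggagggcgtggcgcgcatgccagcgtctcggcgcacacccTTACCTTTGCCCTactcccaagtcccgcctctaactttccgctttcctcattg
Ucp3: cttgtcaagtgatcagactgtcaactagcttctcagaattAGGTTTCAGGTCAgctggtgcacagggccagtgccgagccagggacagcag

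The 3 uptake and binding genes were all lower in mdx5cv muscle (gene positions here and in the following are on GRCm38). Fabp3 (ENSMUSG00000028773.8, chr4:130308595-130315463, plus strand) encodes the cytosolic fatty acid binding protein of heart and muscle. Its normalized counts were 1728, 2933, 2202 and 1683 in WT replicates 1 to 4 and 361, 653, 710.5 and 541 in mdx5cv replicates 1 to 4. The highest mdx5cv muscle lay far under the lowest WT muscle, and the mean normalized count was 3.77-fold lower. The log2 fold change of -1.92 ± 0.21 (SE, adjusted p = 1.84e-05) was the largest decrease of the members. Cd36 (ENSMUSG00000002944.15, chr5:17781690-17888801, minus strand) encodes the fatty acid translocase of the cell surface, which endothelial cells, macrophages and fat cells express as well as fibers. It had 3251, 4909, 3534 and 2619 normalized counts in the WT muscles and 1446, 1756, 1464 and 1906 in the mdx5cv muscles. The groups did not overlap, WT replicate 2 was the highest of all, and the log2 fold change was -1.09 ± 0.17 (adjusted p = 0.000231). Slc27a1, which encodes fatty acid transport protein 1, ran from 778 to 1281 in WT and from 432 to 615 in mdx5cv muscle, again without overlap, at a log2 fold change of -0.92 ± 0.15 (adjusted p = 0.000441).

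Of the 3 acyl-CoA synthetases, 2 were lower. Acsl1 (ENSMUSG00000018796.13, chr8:46471037-46536051, plus strand), which encodes the main long-chain form of muscle and fat, had 3105, 4370.0, 3248 and 3218 normalized counts in WT and 1365, 1778, 1598 and 1221 in mdx5cv muscle. The highest mdx5cv muscle stayed well under the lowest WT muscle, and the log2 fold change was -1.23 ± 0.14 (adjusted p = 2.64e-05). Acsl3, a form of the endoplasmic reticulum and of lipid droplets, was lower by less, with a log2 fold change of -0.54 ± 0.15 (adjusted p = 0.00996). With equal totals Acsl3 was at -0.19 and was not called (adjusted p = 0.384). Acsl4, which prefers arachidonate, averaged 436 ± 44.8 in WT and 439 ± 84.7 in mdx5cv muscle (mean ± SD, n = 4), and its groups overlapped. Its log2 fold change was -0.0041, with a 95% confidence interval of -0.30 to 0.29 and an adjusted p of 0.983. Within a muscle, the log2 ratio of Acsl4 to Acsl1 was -2.99 ± 0.34 in WT and -1.77 ± 0.51 in mdx5cv muscle without overlap, a difference that no scaling of the libraries can move. By an exact two-sided permutation test over the 8 muscles this had p = 0.0286, the smallest that 70 arrangements allow, and 0.0714 after adjustment over the 10 pairs of members compared. In 4 of the 10 pairs the groups did not overlap, and no pair passed 0.05 after adjustment.

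The carnitine shuttle held members that moved in opposite directions. Slc25a20 (ENSMUSG00000032602.6, chr9:108662088-108684641, plus strand) encodes the carnitine-acylcarnitine translocase of the inner mitochondrial membrane. Its normalized counts were 612, 893, 765 and 573 in WT and 299, 350.0, 332 and 259 in mdx5cv muscle, with no overlap, and the log2 fold change was -1.18 ± 0.15 (adjusted p = 5.09e-05). Cpt2, which encodes the inner carnitine palmitoyltransferase, was lower at -0.93 ± 0.12 (adjusted p = 4.92e-05), from 547 ± 57.9 normalized counts in WT to 287 ± 31.0 in mdx5cv muscle. Slc22a5, the carnitine transporter of the plasma membrane, was lower at -0.55 ± 0.19 (adjusted p = 0.0323), although WT replicate 3 (94.0) lay within the mdx5cv range of 86.3 to 95.3. The Slc22a5 call was near the threshold and did not outlast the loss of most single muscles. Without WT replicate 1, WT replicate 2, mdx5cv replicate 1, mdx5cv replicate 3 or mdx5cv replicate 4 the log2 fold change was -0.53, -0.37, -0.54, -0.57 and -0.53 in turn. The adjusted p were 0.0784, 0.0799, 0.0709, 0.0536 and 0.0662. Of these fits, only the one without WT replicate 2 changed the fold much, and a fit with fewer muscles has less power.

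Cpt1a (ENSMUSG00000024900.5, chr19:3322334-3385733, plus strand), which encodes the outer carnitine palmitoyltransferase of liver and of many non-muscle cells, was the only member called higher in mdx5cv muscle under the deposited scaling. It had 63.0, 88.8, 98.4 and 107 normalized counts in the WT muscles and 200.1, 180.2, 115 and 304 in the mdx5cv muscles. Every mdx5cv muscle exceeded every WT muscle, narrowly for mdx5cv replicate 3, and the mean normalized count was 2.24-fold higher. The log2 fold change, which is taken from the log2 values, was 1.10 ± 0.25 (adjusted p = 0.00356). The highest value was in mdx5cv replicate 4. This muscle also had the highest summed counts of the macrophage, fibroblast, regenerating fiber and slow fiber markers described with the cell type lists. The part of any of these cells in the Cpt1a difference was not tested. Without WT replicate 1 its log2 fold change was 0.94 (adjusted p = 0.0146), and without mdx5cv replicate 4 it was 0.87 (adjusted p = 0.00927), both under the fold change of 1. Cpt1b, which encodes the muscle form of the same enzyme, was counted at 24.1, 54.8, 52.0 and 43.4 in WT and 30.6, 30.2, 23.4 and 17.6 normalized counts in mdx5cv muscle. WT replicate 1 lay among the mdx5cv muscles, and without it the log2 fold change was -0.98 (adjusted p = 0.00966). Without WT replicate 2 the log2 fold change was -0.59 (adjusted p = 0.140), and with equal totals -0.37 (adjusted p = 0.299). With all muscles the log2 fold change of -0.72 ± 0.28 did not pass (adjusted p = 0.0546), while edgeR on the recovered reads gave an adjusted p of 0.0414 and DESeq2 one of 0.0482. Of its exonic length, 81.4% is shared on the same strand with the read-through gene Gm44502, which was listed at 0 in all muscles, so that the counts given to Cpt1b cover little of that transcript and its level beside other genes is uncertain. The log2 ratio of Cpt1a to Cpt1b within a muscle was 1.06 ± 0.31 in WT and 2.87 ± 0.79 in mdx5cv muscle, without overlap (difference 1.82, exact permutation p = 0.0286, adjusted p = 0.0714).

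**Figure D3:**
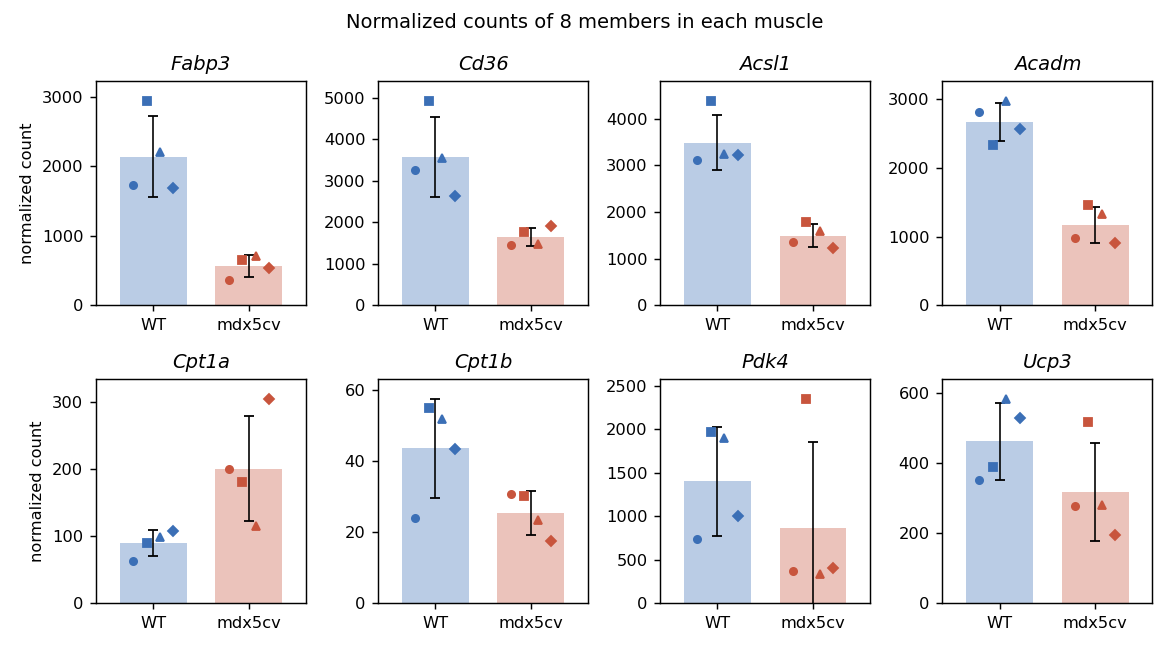
Normalized counts of 8 members in each TA muscle (vertical axes, which start at 0), with bars for the mean of 4 WT and 4 mdx5cv muscles, black lines for the SD and points for single muscles, in the same marker shapes as the plot of all members. Fabp3, Cd36, Acsl1 and Acadm do not overlap between groups, Cpt1a is higher in mdx5cv muscle, and Pdk4 and Ucp3 are highest among mdx5cv muscles in replicate 2 (square). The lower SD line of Pdk4 in mdx5cv muscle ends at 0 because its SD exceeds its mean.

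All 4 acyl-CoA dehydrogenases, which take the first step of each turn on chains of different length, were lower, and none overlapped between groups. Acadm (ENSMUSG00000062908.12, chr3:153922357-153944632, minus strand), the medium-chain enzyme, had 2810.1, 2334, 2971 and 2564 normalized counts in WT and 982, 1457, 1325 and 904 in mdx5cv muscle. Its lowest WT muscle was replicate 2, which was the highest WT muscle for most members, and the log2 fold change was -1.22 ± 0.15 (adjusted p = 4.45e-05). Acadvl (ENSMUSG00000018574.14, chr11:70010183-70015411, minus strand), the very-long-chain enzyme of the inner membrane, had 3468, 4406, 3415 and 3265 in WT and 1311, 1985, 1796 and 1315 in mdx5cv muscle, a log2 fold change of -1.20 ± 0.15 (adjusted p = 4.97e-05). Dvl2 overlaps 42.9% of its exonic length on the opposite strand, and with 54.2 ± 8.29 normalized counts in WT and 68.2 ± 8.13 in mdx5cv muscle it was far below Acadvl. The long-chain Acadl was lower at -0.86 ± 0.11 (adjusted p = 4.65e-05). For the short-chain Acads the log2 fold change was -0.88 ± 0.18 (adjusted p = 0.00171).

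The 6 genes of the hydratase, dehydrogenase and thiolase steps were all lower, by a median log2 fold change of -0.68. Hadhb (ENSMUSG00000059447.13, chr5:30155248-30184593, plus strand) encodes the thiolase-bearing beta subunit of the mitochondrial trifunctional protein, and had 2740.2, 3708, 2851 and 2299 normalized counts in WT and 1228, 1616, 1543 and 1138 in mdx5cv muscle. With no overlap, its log2 fold change was -1.06 ± 0.15 (adjusted p = 0.000146). Hadha, which lies head to head with Hadhb on chr5 and encodes the alpha subunit of the same complex, was lower by less, at -0.68 ± 0.13 (adjusted p = 0.00123). The log2 ratio of Hadha to Hadhb was 0.0809 to 0.325 in WT and 0.501 to 0.653 in mdx5cv muscle, which did not overlap (difference 0.38, exact permutation p = 0.0286, adjusted p = 0.0714). Acaa2, the mitochondrial 3-ketoacyl-CoA thiolase, was lower at -0.92 ± 0.17 (adjusted p = 0.000866), and Echs1, the short-chain enoyl-CoA hydratase, at -0.67 ± 0.17 (adjusted p = 0.00607). Ehhadh, the bifunctional enzyme of the peroxisome, was lower at -0.54 ± 0.15 (adjusted p = 0.0138). With equal totals Ehhadh was at -0.18 and was not called (adjusted p = 0.391). The smallest decrease of the 6 was that of Hadh, the short- and medium-chain hydroxyacyl-CoA dehydrogenase, whose mdx5cv range of 591 to 858 reached into the WT range of 814 to 1068 (log2 fold change -0.44 ± 0.14, adjusted p = 0.0204). The Hadh call was lost without WT replicate 1 (-0.40, adjusted p = 0.0643), WT replicate 3 (-0.42, adjusted p = 0.0559), mdx5cv replicate 1 (-0.38, adjusted p = 0.0674) or mdx5cv replicate 4 (-0.35, adjusted p = 0.0558). With equal totals the log2 fold change of Hadh was -0.09 (adjusted p = 0.599).

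The auxiliary enzymes prepare unsaturated chains for beta-oxidation, and all 3 were lower without overlap. Decr1 (ENSMUSG00000028223.8, chr4:15917240-15945507, minus strand), the mitochondrial dienoyl-CoA reductase, had 1363, 1834, 1581 and 1157 normalized counts in WT and 578, 662, 702 and 525 in mdx5cv muscle. Its log2 fold change of -1.25 ± 0.14 (adjusted p = 2.55e-05) came next after Fabp3 in size. Eci1 (ENSMUSG00000024132.6, chr17:24426641-24439348, plus strand), an enoyl-CoA isomerase of mitochondria, had 672, 778, 670.0 and 735 in WT and 327, 341, 397 and 267 in mdx5cv muscle, with a log2 fold change of -1.11 ± 0.12 (adjusted p = 2.18e-05). Eci2, the related isomerase of peroxisomes and mitochondria, was lower at -0.96 ± 0.15 (adjusted p = 0.000211).

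Of the 3 genes of electron transfer, 2 were lower. Etfdh (ENSMUSG00000027809.14, chr3:79603788-79629500, minus strand), which encodes the oxidoreductase that passes the electrons to ubiquinone, had 1454, 1921, 1298 and 1196 normalized counts in WT and 576, 781, 736 and 569 in mdx5cv muscle. The groups stood clear of each other, and the log2 fold change was -1.13 ± 0.15 (adjusted p = 9.74e-05). Etfa and Etfb encode the subunits of the flavoprotein that feeds it. Etfa was lower at -0.35 ± 0.11 (adjusted p = 0.0199), its groups overlapped, and with equal totals its log2 fold change was 0.00. Without WT replicate 1 (-0.31, adjusted p = 0.0664) or mdx5cv replicate 1 (-0.31, adjusted p = 0.0676) Etfa no longer passed. Etfb, at -0.35 with a 95% confidence interval of -0.75 to 0.05, did not pass (adjusted p = 0.149), although without WT replicate 2 it was -0.50 (adjusted p = 0.0318). Of its exonic length, 53.0% is shared with the same-strand gene Etfbl, which had at most 3 reads in a muscle, so the Etfb counts cover part of that transcript.

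Of the acyl-CoA thioesterases, which release free fatty acids from coenzyme A, Acot2 is mitochondrial and Acot1 cytosolic. Acot2 (ENSMUSG00000021226.7, chr12:83987861-83993873, plus strand) had 139.8, 236, 206 and 93.2 normalized counts in WT and 61.1, 84.0, 61.2 and 83.1 in mdx5cv muscle. All mdx5cv muscles were below WT replicate 4, the lowest WT muscle, and the log2 fold change was -1.14 ± 0.25 (adjusted p = 0.00281). Acot1 had 0 to 7 reads in the WT and 1 to 6 in the mdx5cv muscles, too few for the test, and a difference was not detectable at this depth. Acot1 and Acot2 are near-identical neighbors on chr12, and reads that fit both could have been split or dropped by the counting.

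Both genes of malonyl-CoA control were lower, although their enzymes act in opposite ways. Mlycd (ENSMUSG00000074064.6, chr8:119394878-119411102, plus strand), which encodes the decarboxylase that removes malonyl-CoA, had 466, 793, 553 and 525 normalized counts in WT and 228, 363, 267 and 217 in mdx5cv muscle. The log2 fold change was -1.12 ± 0.18 (adjusted p = 0.000377), without overlap. Acacb, which encodes the acetyl-CoA carboxylase that makes malonyl-CoA at the mitochondrial surface, was lower by less, at -0.64 ± 0.13 (adjusted p = 0.00199). The log2 ratio of Mlycd to Acacb was -2.76 ± 0.47 in WT and -3.24 ± 0.14 in mdx5cv muscle, and the groups overlapped by a small margin, in WT replicate 1 and mdx5cv replicate 2 (exact permutation p = 0.0571, adjusted p = 0.114).

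Of the 4 fuel selection genes and PPAR factors, 1 was lower and 3 did not pass. Pdk4 (ENSMUSG00000019577.6, chr6:5483351-5496309, minus strand) encodes the kinase that shuts off pyruvate dehydrogenase and is known to rise with fasting. It had 738, 1976, 1899.5 and 999 normalized counts in WT and 371, 2349, 331 and 402 in mdx5cv muscle. In mdx5cv replicate 2 it stood above all WT muscles, whereas the other 3 mdx5cv muscles lay below all of them. Pdk4 did not pass (log2 fold change -1.14 ± 0.52, adjusted p = 0.095), and without mdx5cv replicate 2 it was -1.81 (adjusted p = 0.000327). Without WT replicate 2 it was -0.94 (adjusted p = 0.213). On the recovered reads it was -0.70 with edgeR (adjusted p = 0.340) and -0.70 with DESeq2 (adjusted p = 0.548). Ucp3, the uncoupling protein of muscle, whose promoter is among those printed, was likewise highest in replicate 2 among the mdx5cv muscles, with 349.5, 387, 582 and 526 in WT and 275, 517, 278 and 194 in mdx5cv muscle. Its log2 fold change was -0.61 ± 0.25 (adjusted p = 0.0662), and -0.87 without mdx5cv replicate 2 (adjusted p = 0.00316).

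Ppara, the PPAR factor best known for fasting and fat oxidation, was lower in all mdx5cv muscles (102 to 118) than in any WT muscle (149 to 168), at a log2 fold change of -0.54 ± 0.12 (adjusted p = 0.00275). This call rested on the deposited scaling, since with equal totals the log2 fold change of Ppara was -0.18 (adjusted p = 0.313). Ppard, a related factor expressed in many tissues, averaged 177 ± 31.6 in WT and 195 ± 10.2 in mdx5cv muscle. Its log2 fold change of 0.16, with a 95% confidence interval of -0.13 to 0.44, did not pass (adjusted p = 0.377). The log2 ratio of Ppard to Ppara within a muscle was 0.14 ± 0.27 in WT and 0.84 ± 0.13 in mdx5cv muscle without overlap (exact permutation p = 0.0286, adjusted p = 0.0714).

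Single muscles moved many members together. WT replicate 2 was the highest WT muscle for 21 of the 34 members, with a median of 0.33 above the WT mean on the log2 scale, and mdx5cv replicate 2 was the highest mdx5cv muscle for 22. mdx5cv replicate 4 was the lowest of its group for 17 members and mdx5cv replicate 1 for 13. How often each muscle was highest or lowest over all genes tested was not counted. In the lists of related genes described below, the median of WT replicate 2 ran from -0.13 (regulators of oxidative metabolism) to 0.35 (glucose oxidation switch). It was 0.22 for mitochondrial content genes, so a shift of this muscle was not particular to the members. Each mdx5cv muscle had most members below the lowest WT muscle, namely 30, 25, 30 and 31 of the 34 in replicates 1 to 4, where 32.0%, 30.8%, 29.9% and 36.0% of all genes tested lay below it. Without WT replicate 2, the members lower past a log2 fold change of 1 went from 12 to 7 (3.01% of all genes), and without mdx5cv replicate 2 to 16 (3.81% of all genes). With both replicates 2 left out, 13 were lower past that fold change (3.49% of all genes) and 29 at an adjusted p under 0.05 (18.1% of all genes).

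Levels of different members were compared per kilobase of exon, with the exons of all annotated transcripts of a gene merged. This length can exceed that of the transcripts made in muscle, which places a gene too low. Acsl1 averaged 3485 normalized counts in WT over 10483 bases, and Acaa2 1363 over 1516 bases. The order below therefore depends on the annotation. In WT muscle, Fabp3 was highest by this measure, at 2596 ± 705 normalized counts per kilobase (mean ± SD, n = 4). Below it came Acadvl at 1355 ± 193, Cd36 at 997 ± 269, Acaa2 at 899 ± 245, Acadl at 773 ± 72.1 and Acadm at 682 ± 71.4. Fabp3 did not overlap with Acadvl, whereas each gene from Acadvl to Acadl overlapped with the next. In 29 of the 34 neighboring pairs in the order of the 35 members the ranges of the WT muscles overlapped. At the low end stood Cpt1b at 12.9 ± 4.12, Cpt1a at 11.7 ± 2.49 and Acot1 at 0.975 ± 0.81. In mdx5cv muscle Fabp3 remained first, at 688 ± 187 per kilobase, and Acadvl next, at 596 ± 127, so that the gap between them was small beside their SDs. Cpt1a reached 26.1 ± 10.2 per kilobase and Cpt1b stood at 7.54 ± 1.83, a level that its overlap with Gm44502 leaves uncertain.

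**Figure D4:**
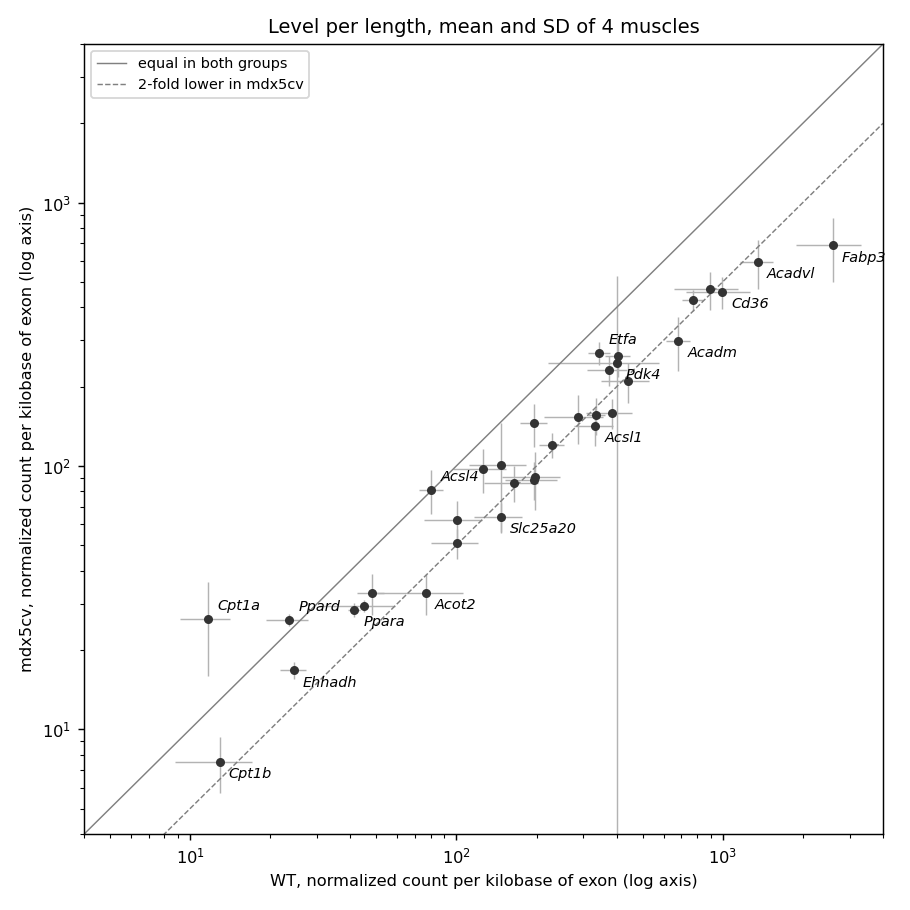
Mean level of the 34 tested members in normalized counts per kilobase of exon, in WT (horizontal axis) and mdx5cv (vertical axis) muscle, both on log axes, with lines for the SD of 4 muscles. The solid line marks equal levels and the dashed line a level 2-fold lower in mdx5cv muscle. Fabp3 lies farthest under the dashed line, Cpt1a lies above the solid line, and the SD line of Pdk4 in mdx5cv muscle runs off the axis because its SD exceeds its mean.

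Related genes outside the set were read from lists of neighboring pathways, and their counts stand beside 20.1% lower and 20.9% higher among all genes tested, with a median log2 fold change of 0.00. Of 13 other uptake and activation genes tested, 5 were lower and 2 higher, at a median log2 fold change of -0.17. Among them Fabp5, the binding protein of macrophages and skin, was higher (log2 fold change ± SE of 1.74 ± 0.24 with an adjusted p of 0.00012), and Gpihbp1, which anchors lipoprotein lipase on capillaries, was lower (-1.22 ± 0.20 with an adjusted p of 0.000437). Fabp4, the binding protein of fat and endothelial cells, was lower too (-0.92 ± 0.15 with an adjusted p of 0.00033). Of 17 other mitochondrial acyl-CoA and carnitine genes, 13 were lower and 1 higher, with a median of -0.57. Acat1, the acetoacetyl-CoA thiolase, had a log2 fold change of -1.02 ± 0.14 with an adjusted p of 0.000126, and Acot13, a thioesterase, of -0.84 ± 0.17 with an adjusted p of 0.00174. For Crat, the carnitine acetyltransferase, it was -0.80 ± 0.12 with an adjusted p of 0.000248. Of 15 peroxisomal beta-oxidation genes 9 were lower and 2 higher (median -0.44), with the acyl-CoA importer Abcd2 lower at -1.26 ± 0.13 with an adjusted p of 1.55e-05. Ech1, a dienoyl-CoA isomerase, was lower at -1.19 ± 0.15 with an adjusted p of 6.02e-05, and Crot, the carnitine octanoyltransferase, at -0.72 ± 0.12 with an adjusted p of 0.000467.

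Of 15 triglyceride storage and lipolysis genes, 10 were lower and 1 higher, with a median of -0.66. The lipid droplet protein Plin5 averaged 154 ± 38.9 normalized counts in WT and 29.7 ± 14.2 in mdx5cv muscle, a larger log2 fold change than that of any member (-2.39 ± 0.27 with an adjusted p of 2.27e-05). Dgat2, an enzyme of the last step of triglyceride synthesis, was lower at -2.11 ± 0.35 with an adjusted p of 0.00039. Cidec, a droplet protein of fat cells, was lower at -1.87 ± 0.47 with an adjusted p of 0.00689, with WT replicate 4 far above the other WT muscles. Of 12 fatty acid synthesis genes, 1 was lower and 4 were higher, with a median of 0.04 that was close to the 0.00 of all genes. The elongases Elovl1 (1.25 ± 0.20 with an adjusted p of 0.000286) and Elovl6 (1.03 ± 0.30 with an adjusted p of 0.0146) were higher, and Me1, the malic enzyme that supplies NADPH, was lower (-0.88 ± 0.12 with an adjusted p of 9.62e-05).

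Of 20 regulators of oxidative metabolism, 10 were lower and 1 higher (median -0.34). Esrrb, an estrogen-related receptor, had a log2 fold change of -3.43 ± 0.41 with an adjusted p of 3.6e-05, and averaged 57.4 ± 16.1 normalized counts in WT and 5.01 ± 3.30 in mdx5cv muscle. Esrrg, the related receptor of oxidative muscle, was lower at -1.97 ± 0.18 with an adjusted p of 5.17e-06, and Rxrg, a partner of the PPAR factors, at -1.38 ± 0.16 with an adjusted p of 2.28e-05. Of 12 genes of the switch to glucose oxidation, 8 were lower and 1 higher (median -0.66). Pdk3, a sister kinase of Pdk4, was higher (1.69 ± 0.37 with an adjusted p of 0.00259), while Mpc2 of the pyruvate carrier (-0.94 ± 0.17 with an adjusted p of 0.00075) and Pdhx of pyruvate dehydrogenase (-0.92 ± 0.15 with an adjusted p of 0.000377) were lower. Of 20 reference genes for mitochondrial content, taken from the respiratory chain, the citric acid cycle and the import machinery, 17 were lower and all 20 had a negative log2 fold change, with a median of -0.64 beside -0.90 for the members. Timm23 of the import machinery was lower at -1.06 ± 0.12 with an adjusted p of 2.62e-05, Slc25a4, the ATP/ADP carrier, at -0.86 ± 0.18 with an adjusted p of 0.0019, and Ndufs1 of complex I at -0.75 ± 0.17 with an adjusted p of 0.00317. Whether the members fell by more than mitochondrial genes at large was not tested.

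**Figure D5:**
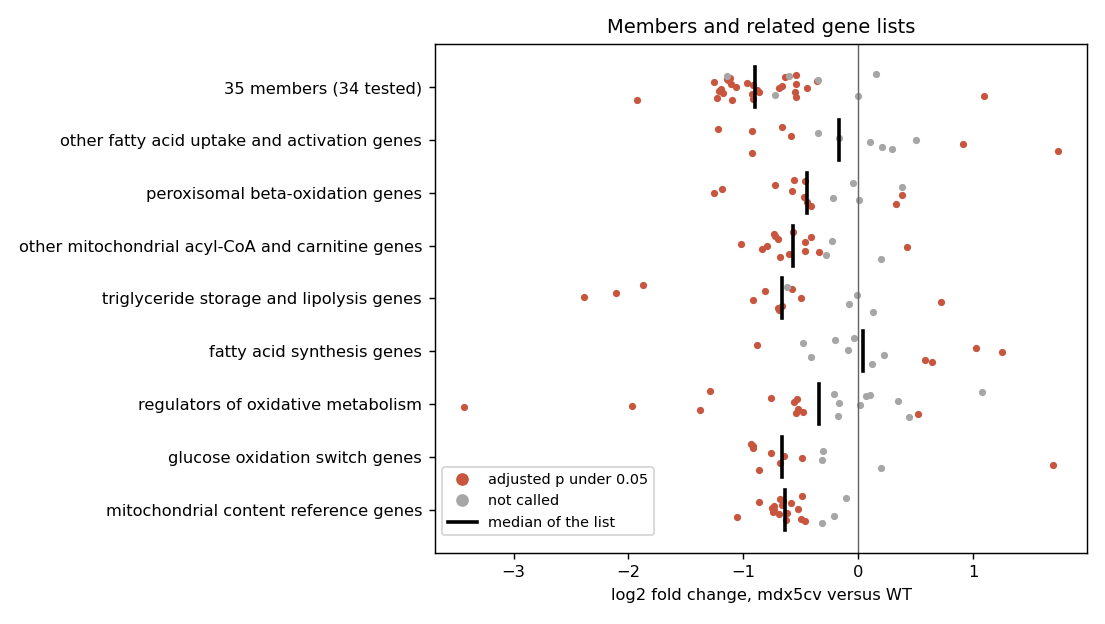
The log2 fold change, mdx5cv versus WT (horizontal axis), of each tested gene of the members and of 8 lists of related genes (rows), with red dots for an adjusted p under 0.05, grey dots otherwise and a black bar for the list's median. The medians run from -0.90 for the members, through -0.66 for triglyceride storage and -0.64 for mitochondrial content, to 0.04 for fatty acid synthesis.

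Markers of other cell types and fiber types moved with the same groups. All 8 macrophage markers were higher in mdx5cv muscle, with summed normalized counts of 556 to 837 in WT and 4174 to 10014 in mdx5cv muscle, and 6 of 7 fibroblast markers were higher (6470 to 9822 in WT, 23175 to 43805 in mdx5cv muscle). All 6 markers of regenerating fibers were higher, at sums of 198 to 229 and 2514 to 9398. All 6 endothelial markers were lower, at sums of 2562 to 3117 in WT and 1579 to 2015 in mdx5cv muscle, and of 5 adipocyte markers tested 3 were lower (117 to 595 and 35.2 to 116). Of the markers of fast glycolytic fibers, 3 of 6 were lower and all 6 had a negative log2 fold change, with a median of -0.38 and sums of 614655 to 797809 in WT and 443705 to 698582 in mdx5cv muscle. Of the fast oxidative fiber markers, 1 of 2 was lower. Myh2 was at 6351 to 11158 in WT and 714 to 5751 in mdx5cv muscle (log2 fold change -1.54 ± 0.50, adjusted p = 0.0241). Myh1 was not called (-0.14 ± 0.26, adjusted p = 0.687). It makes up most of the summed counts, which overlapped at 88726 to 117052 and 53114 to 124205. Among 7 slow fiber markers, 4 were higher and 1 lower, at sums of 747 to 834 and 1202 to 2597. They did not move together, since Myl3 was lower (-3.56 ± 0.57, adjusted p = 0.000326) and the slow myosin Myh7 was not called (adjusted p = 0.111). No marker of any list was at 0 in all muscles. When the libraries were scaled on the fast glycolytic fiber markers instead, a setting chosen after the data were seen, 17 of the 34 members were lower, where 3.56% of all genes were lower and 31.7% higher, and the members' median was -0.52, beside 0.38 for all genes. The part of each cell type in the members' levels was not tested.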

How the data were processed

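Total RNA of TA muscle was extracted with Trizol and made into stranded libraries after ribosomal RNA depletion. The submitters' processing notes name FastQC, Trim Galore 0.6.4, STAR 2.6.0c, SAMtools 1.9, featureCounts, MultiQC 1.6, DESeq2 1.26.0, R 3.6.2 and the mm10 build. Their settings, the strand option and the annotation are not given in the sources used here. The authors deposited normalized values, a signal for every gene in which the reads counted are divided by the size factor of the muscle. Size factors were recovered from the smallest steps of the values, and 100% of values came out as whole reads within 0.001. Chi-square per degree of freedom between replicates was 8.59 to 38.4, so each muscle was counted as a separate sample.

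log2(normalized count + 1) was fitted with limma 3.58.1 (variance trend, no covariate, two-sided) in R 4.3.3 for genes whose normalized counts averaged 10 or more, with Benjamini-Hochberg adjustment over 13677 genes. Fold changes on this scale understate those of low genes. The fold change minimum of 1 (log2) follows the study's methods for its other RNA-seq. Pair ratios were compared by exact two-sided permutation tests with scipy 1.17.1. Alternatives included edgeR 4.0.16 and DESeq2 1.42.0 on the recovered reads, other pseudocounts, filters and scalings, a replicate block and each muscle left out. The scripts were tested on simulated data. Exonic lengths came from GENCODE M21 on GRCm38 and promoters from RefSeq GRCm38.p6. Per-muscle values were given for members past both thresholds and for the member with the largest change of each role, and at most 3 genes of each related list were named. The members and lists were chosen with earlier results of these data known.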

Additional observations from a re-analysis of the deposited data

Results flagged for a closer look

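In sets of 4 muscles, a muscle that lay far from the other 3 on the log2(normalized count + 1) scale was looked for in the 34 tested members, and 2 of the 68 sets held one, where chance gives about 3.4. Pdk4 in mdx5cv replicate 2 stood at 11.20, above 8.38 to 8.65 in the other mdx5cv muscles. Acsl1 in WT replicate 2 stood at 12.09, above 11.60 to 11.67 in the other WT muscles.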

How the results depend on the processing

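Of the 28 members called, 16 kept their direction and their side of the threshold under all 21 alternatives, and Etfa alone changed sign, to 0.0032 with equal totals and 0.0254 with scaling on the fast glycolytic fiber markers. Etfb, not called, moved to 0.0058 and 0.0280 under the same settings. Acsl4, near 0, was 0.0118 with edgeR, 0.0117 with DESeq2, 0.0462 without both replicates 2, 0.3534 with equal totals, 0.2072 with equal totals outside mitochondrially encoded genes and 0.3756 with fiber marker scaling. Equal totals gave 2 members higher (39.8% of all genes), 1 lower past the fold change (1.53% of all genes) and a median of -0.54. Equal totals outside mitochondrially encoded genes gave 4 lower past the fold change (2.05% of all genes) and a median of -0.69. Fiber marker scaling gave 17 lower (3.56% of all genes), 1 lower past the fold change (1.46% of all genes) and a median of -0.52. These scalings shift all genes together. With no filter, limma on 55401 genes gave 19 members lower (2.61% of all genes), without Acacb, Acads, Acot2, Acsl3, Echs1, Etfa, Hadh and Slc22a5. It gave 0 higher with or without the fold change (2.45% and 3.45% of all genes). Cpt1a, the 1 member higher at an unadjusted p under 0.05, then had an adjusted p of 0.106. The folds were the same, but more genes were tested and the standard errors changed. That of Cpt1a went from 0.249 to 0.308 and that of Ppara from 0.117 to 0.0563. edgeR on the 13677 filtered genes, and DESeq2, whose own filter left 19036 genes with an adjusted p, each gave 1 member higher (20.8% and 16.6% of all genes). Fiber marker scaling and leaving out both replicates 2 were chosen after seeing the data. With 1 muscle left out, 24 to 29 members were lower (16.4% to 19.2% of all genes) and 7 to 16 lower past the fold change (2.77% to 3.81% of all genes). In these fits 0 to 1 were higher past it (8.89% to 10.7% of all genes), and the median was -0.97 to -0.76. Acsl4 was then -0.1106 to 0.0849, and the difference in the log2 ratio of Etfa to Etfb -0.0920 to 0.1365. With the replicate block, 28 members were lower (20% of all genes) and 13 lower past the fold change (3.32% of all genes), and Pdk4 passed (adjusted p = 0.0132). Same-numbered muscles correlated at 0.05, 0.03, 0.07 and 0.15 in their deviations, so the numbers were not taken as pairs. Acot1, at 0 to 7 reads in a muscle, was below what this depth can compare.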
